A study of Mus musculus with 16 samples.

Results

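A set of 9 astrocyte genes for water, potassium and glutamate homeostasis and for gap junctions and endfoot membranes was followed in whole brain RNA of Tecpr2 L1152fs knock-in mice. The genes were Aqp4, Slc1a2, Slc1a3, Kcnj10, Glul, Gja1, Gjb6, Mlc1 and Hepacam, which is 9 of the 55404 genes of the deposited table, and they were selected by name for their roles in astrocytes, with the genotype differences of these mice, that of Aqp4 among them, already known. Bulk RNA sequencing had been done on 8 Tecpr2 ki/ki and 8 wt/wt mice, 1 library per mouse, all untreated males of 5 months of age. Tecpr2 ki/ki mice are homozygous for a frameshift that was made by Cas9 editing of C57BL/6J zygotes and so is not limited to a cell type, and the wt/wt mice are unedited at this gene. Values are linear normalized values from the authors, rounded to whole numbers, and their totals lay between 11964284 and 12252324 per mouse. Tecpr2 itself read 274 to 320 in the 8 Tecpr2 ki/ki mice and 928 to 1002 in the 8 wt/wt mice, so the levels match the labels. Markers of neurons, oligodendrocytes, microglia and astrocytes were present, with none at 0 in all mice.

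Astrocytes reach blood vessels with endfeet, processes that wrap the vessel wall and concentrate water and potassium channels on the side that faces it. They take up the glutamate that neurons release, turn it into glutamine and return it, and they share ions and metabolites with one another through gap junctions. AQP4 is the main water channel of endfeet, KIR4.1 (encoded by Kcnj10) buffers extracellular potassium, GLT-1 (Slc1a2) and GLAST (Slc1a3) are the glial glutamate transporters, and glutamine synthetase (Glul) converts glutamate to glutamine. Connexin 43 (Gja1) and connexin 30 (Gjb6) form astrocytic gap junctions. MLC1 and GlialCAM (Hepacam) are membrane proteins that bind each other at contacts between endfeet.

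Of these 9 genes, 2 were higher in Tecpr2 ki/ki brains in the comparison across all genes, and both changes were small. Aqp4 was 10.4% higher and Slc1a2 was 4.5% higher, and the other 7 genes did not pass the threshold. The threshold was an adjusted p under 0.1 (limma on log2(value + 1), Benjamini-Hochberg over 23244 tested genes). Of all tested genes, 31 passed it (0.133%), of which 22 were higher in Tecpr2 ki/ki (0.0946%). All 9 genes passed the limit on low values. Their median log2 fold change was 0.01, against a median of -0.000981 over all tested genes, with 6 of the 9 estimates above 0 and 3 below. Both Aqp4 and Slc1a2 also stand in the list of changed genes that the study drew from these same mice, so the genotype difference given here is a description and no independent evidence, its p-values included. In bulk tissue, more RNA per astrocyte and more astrocytes cannot be told apart. The study reported pronounced gliosis in a defined area of the medulla, with milder changes of the glial markers GFAP and IBA1 elsewhere. Whole brain values average over regions, so the size of a change within that area was not measured here.

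**Figure D1:**
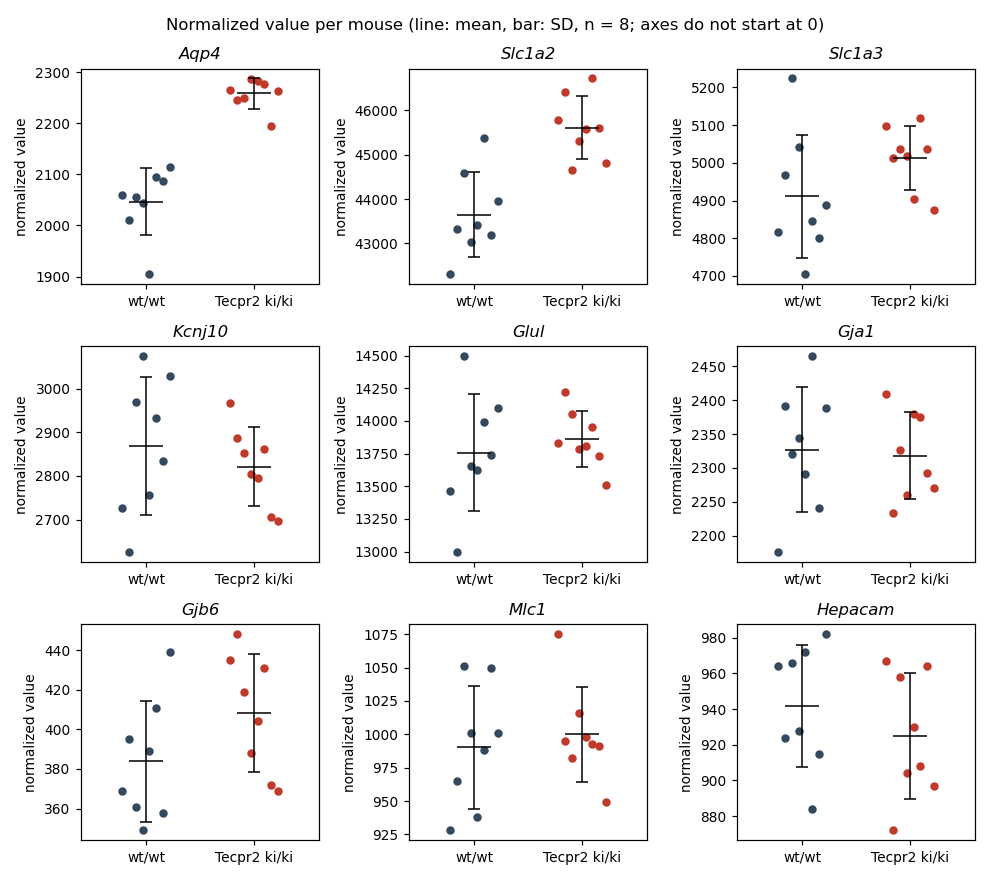
Normalized value of each gene in every mouse, 1 point per mouse, with the mean (line) and SD (bar) of 8 mice per genotype on linear axes that do not start at 0. For Aqp4 the 8 Tecpr2 ki/ki mice (2195 to 2287) sit above the 8 wt/wt mice (1904 to 2114), while the ranges of the other 8 genes overlap.

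The 250 bases before the transcript start (RefSeq, GRCm38.p6) are shown for Kcnj10, Glul and Gjb6, since Gjb6 with Kcnj10 and Gjb6 with Glul were the pairs of highest correlation across Tecpr2 ki/ki mice. A RefSeq window was found for 8 of the 9 genes, all but Aqp4. Sequences are given 5′ to 3′ on the strand of the gene, and capitals mark matches to 5 motifs, each searched on both strands. They were the letters TATAAA for the core promoter element of that name, the letters CCAAT for the box bound by nuclear factor Y, and the letters GGGCGG for the GC box bound by SP1. The half-site of nuclear factor I was searched as TTGGC and the AP-1 site as TGAGTCA. Where a nuclear factor Y box and a nuclear factor I half-site overlap, the capitals run together.
Kcnj10, chr1:172340960-172341209, plus strand: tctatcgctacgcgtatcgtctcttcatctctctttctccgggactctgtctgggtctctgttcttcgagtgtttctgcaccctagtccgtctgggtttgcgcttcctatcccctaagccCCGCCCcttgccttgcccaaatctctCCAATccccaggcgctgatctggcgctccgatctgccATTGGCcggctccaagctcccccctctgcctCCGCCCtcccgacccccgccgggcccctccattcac
Glul, chr1:153899679-153899928, plus strand: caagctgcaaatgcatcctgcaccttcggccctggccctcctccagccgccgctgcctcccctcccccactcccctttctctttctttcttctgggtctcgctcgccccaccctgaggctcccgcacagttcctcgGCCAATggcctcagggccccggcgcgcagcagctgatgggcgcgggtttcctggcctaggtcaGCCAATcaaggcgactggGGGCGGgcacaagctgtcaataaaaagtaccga
Gjb6, chr14:57133612-57133861, minus strand: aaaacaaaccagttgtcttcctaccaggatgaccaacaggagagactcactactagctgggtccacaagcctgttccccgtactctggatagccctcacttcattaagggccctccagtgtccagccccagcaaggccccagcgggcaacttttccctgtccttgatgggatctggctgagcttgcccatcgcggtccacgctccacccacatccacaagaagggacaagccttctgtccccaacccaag
The windows of Kcnj10 and Glul each held 2 nuclear factor Y boxes, and the Kcnj10 window held 2 GC boxes and the Glul window 1. At least 1 nuclear factor Y box occurs in 33.8%, and at least 1 GC box in 32.7%, of all 32851 windows of the table. The nuclear factor I half-site was present once for Kcnj10 and 2 times for Glul, against 41.5% of all windows with at least 1, and every such match in these windows overlapped a nuclear factor Y box. The Gjb6 window contained none of the 5 motifs, of which the first named occurs in 12.4% and the AP-1 site in 4.46% of all windows. GC content was 62.0% for Kcnj10, 64.8% for Glul and 56.8% for Gjb6, with a median of 52.4% over all windows. A match of letters describes the window and is no evidence of binding.

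The level of each gene was compared per kb of annotated exon, since longer transcripts collect more reads. Exon length was taken over all annotated transcripts of a gene together, of which Kcnj10 has 1 and Slc1a2 has 12. Where the transcripts in use are shorter, the level is understated, so the order also rests on the annotation. Glul, at 4156 normalized values per kb, and Slc1a2, at 3398, stood well above the rest. By this measure the enzyme and the main transporter of the glutamate cycle had the highest levels of the 9. Slc1a3 followed at 581.2 and Kcnj10 at 526.2, with overlapping ranges over mice but Slc1a3 the higher in 16 of 16 mice. Mlc1 (355.3) and Aqp4 (345.3) overlapped in their ranges, and their order depended on the genotype. Mlc1 was the higher per kb in 8 of 8 wt/wt mice (means 353.5 and 328.3) but in 2 of 8 Tecpr2 ki/ki mice (means 357.0 and 362.3), in which Aqp4 was higher. This switch restates the higher Aqp4 value in Tecpr2 ki/ki at levels per kb that lie close together, and is no further result. Hepacam (278.9), Gja1 (226.4) and Gjb6 (148.1) came last, with ranges that did not overlap between these neighbours. Apart from Mlc1 and Aqp4, all neighbours in this order kept it in each of the 16 mice. The same exon length was used for every mouse, so an order kept over mice does not test that length. Together the 9 genes made up 0.579% to 0.628% of the total value of a mouse.

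**Figure D2:**
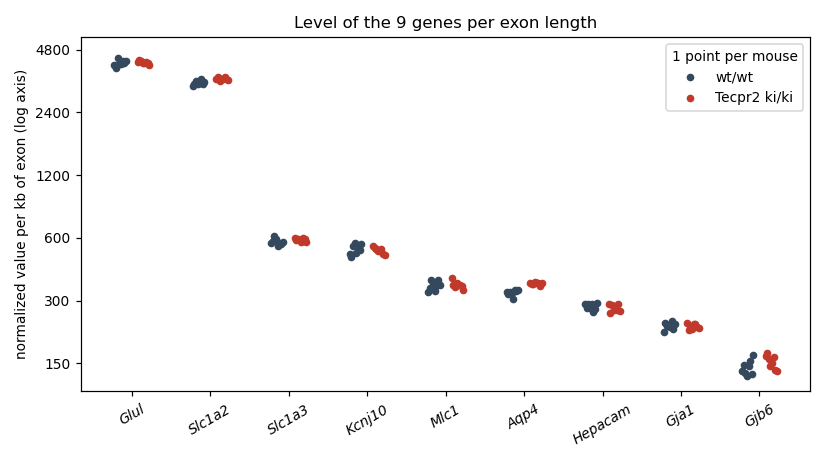
Normalized value per kb of exon for each gene in every mouse (1 point per mouse, log axis), ordered by the mean of 16 mice. Glul (4156) and Slc1a2 (3398) sit apart from the other 7 genes, which lie between 148.1 and 581.2, and the genotypes overlap for all genes but Aqp4.

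Aqp4 (ENSMUSG00000024411), the water channel, was the gene of the 9 with the smallest p. Its normalized value in the wt/wt mice was lowest at 1904, with a median of 2057.5 and a highest value of 2114. In the Tecpr2 ki/ki mice the lowest value was 2195, the median 2264.5 and the highest 2287. Every Tecpr2 ki/ki mouse thus lay above every wt/wt mouse, and 15 of all tested genes (0.0645%) were without overlap in this direction. The means were 2258 ± 29.6 (SD, n = 8) and 2046 ± 65.9 (SD, n = 8), a log2 fold change of 0.14 with SE 0.02 (limma, Benjamini-Hochberg adjusted p = 3.75e-05). An exact two-sided permutation test over 12870 splits gave p = 0.000155, the smallest that 8 against 8 mice can give. The spread was also narrower in Tecpr2 ki/ki, at a coefficient of variation of 1.31% against 3.22% in wt/wt, and this difference in spread was not tested. The wt/wt spread was widened by mouse 5, at 1904, as the next lowest wt/wt mouse read 2011. Aqp4 passed the threshold in all 23 alternative settings, with adjusted p between 1.16e-05 and 0.058.

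Kcnj10 (ENSMUSG00000044708, chr1:172341210-172374085, with this and all gene positions in GRCm38) encodes the potassium channel that shares the endfoot membrane with AQP4. It read 2696 to 2967 (median 2829) in Tecpr2 ki/ki and 2625 to 3074 (median 2883.5) in wt/wt mice. The Tecpr2 ki/ki range fell within that of wt/wt. The log2 fold change was -0.02 (limma, 95% interval -0.08 to 0.03, adjusted p = 0.944), an interval of -5.14% to 2.16% in linear terms. The ratio of Aqp4 to Kcnj10 within a mouse was 0.7637 to 0.8394 in Tecpr2 ki/ki and 0.6649 to 0.7661 in wt/wt. For 7 of the 8 Tecpr2 ki/ki mice this ratio was above that of every wt/wt mouse, with Aqp4 higher and Kcnj10 not passing the test.

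Slc1a2 (ENSMUSG00000005089, chr2:102658659-102790784), which encodes the transporter that clears most synaptic glutamate, had by far the highest deposited value of the 9 genes. The wt/wt mice ranged from 42299 to 45369 with a median of 43363.5, and the Tecpr2 ki/ki mice from 44657 to 46722 with a median of 45590.5. Overlap came from wt/wt mouse 6, at 45369, above 3 of the Tecpr2 ki/ki mice, whereas the other 7 wt/wt mice lay below all Tecpr2 ki/ki mice. The means were 45610.4 ± 712 and 43648 ± 965 (SD, n = 8 each). The log2 fold change was 0.06 with SE 0.01 (limma, adjusted p = 0.00229), and the exact permutation test gave p = 0.000932. The call was lost in 2 alternative settings, at an adjusted p of 0.75 without trend and robust estimation and of 0.202 without the limit on low values (limma). In the ratio of Aqp4 to Slc1a2, 6 of 8 Tecpr2 ki/ki mice were above all wt/wt mice (0.04813 to 0.05049 against 0.04386 to 0.0487). Gm13872, an opposite-strand gene that shares 189 exon bases with Slc1a2, read 69.8 in Tecpr2 ki/ki and 66.9 in wt/wt on average.

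Slc1a3 (ENSMUSG00000005360, chr15:8634124-8710764), the transporter gene that is also strong in Bergmann glia of the cerebellum, was at 5013 ± 85.1 in Tecpr2 ki/ki and 4911 ± 163 in wt/wt (SD, n = 8 each). All 8 Tecpr2 ki/ki mice were above the wt/wt median of 4868, but wt/wt mouse 3, at 5224, was above them all. The log2 fold change of 0.03 did not pass the test (limma, 95% interval -0.01 to 0.07, adjusted p = 0.877). The interval runs from -0.392% to 4.65%, so a rise of the size of that of Slc1a2 lies within it. The ratio of the 2 transporters, Slc1a2 to Slc1a3, was 8.868 to 9.296 in Tecpr2 ki/ki, inside the wt/wt range of 8.536 to 9.36.

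Glul (ENSMUSG00000026473, chr1:153899944-153909723) encodes the enzyme that detoxifies the glutamate these transporters bring in. Its values were 13508 to 14224 in Tecpr2 ki/ki and 12993 to 14494 in wt/wt, the former range lying inside the latter. The log2 fold change was 0.01 (limma, adjusted p = 0.955), with a 95% interval from -1.25% to 2.87%. Reads of Glul could in part be those of near copies, as 20.37% of its 31-base words occur in other annotated transcripts, chiefly Glns-ps1. That pseudogene read 65.9 in Tecpr2 ki/ki and 65.0 in wt/wt on average, small beside the value of Glul.

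Neither gap junction gene passed the test. Gja1 (ENSMUSG00000050953, chr10:56377330-56402513), the connexin gene shared with endothelial and other cells, was at 2318 ± 64.2 in Tecpr2 ki/ki and 2327 ± 92.0 in wt/wt (SD, n = 8 each). Its log2 fold change of -0.00484 had no stable sign, since it turned positive when any 1 of 5 mice was left out (limma, adjusted p = 0.989, 95% interval from -3.45% to 2.88%). Gjb6 (ENSMUSG00000040055, chr14:57123303-57133611), which in the brain is largely confined to astrocytes, had the lowest level and the widest spread of the 9 genes. It read 369 to 448 (median 411.5) in Tecpr2 ki/ki and 349 to 439 (median 379) in wt/wt mice. Its estimate of 6.35% was larger than that of Slc1a2, but the groups overlapped and the interval ran from -0.24% to 13.4% (limma, adjusted p = 0.845). Coefficients of variation were 7.3% and 7.97% for Gjb6, against 1.56% and 2.21% for Slc1a2, so a given percent difference was resolved less well for Gjb6. The ratio of Gjb6 to Gja1 was 0.1623 to 0.2005 in Tecpr2 ki/ki and 0.1489 to 0.1838 in wt/wt.

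Mlc1 (ENSMUSG00000035805, chr15:88955884-88979007) and Hepacam (ENSMUSG00000046240, chr9:37367351-37386575) encode binding partners whose loss in humans causes a leukoencephalopathy with cysts. Mlc1 ranged from 949 to 1075 in Tecpr2 ki/ki and from 928 to 1051 in wt/wt. Hepacam ranged from 872 to 967 and from 884 to 982. The log2 fold changes were 0.01 for Mlc1 (limma, adjusted p = 0.975, 95% interval from -3.1% to 5.3%) and -0.03 for Hepacam (limma, adjusted p = 0.94, 95% interval from -5.79% to 2.37%). Their ratio within a mouse was 1.025 to 1.141 in Tecpr2 ki/ki and 0.9627 to 1.148 in wt/wt, a range that held all Tecpr2 ki/ki mice.

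**Figure D3:**
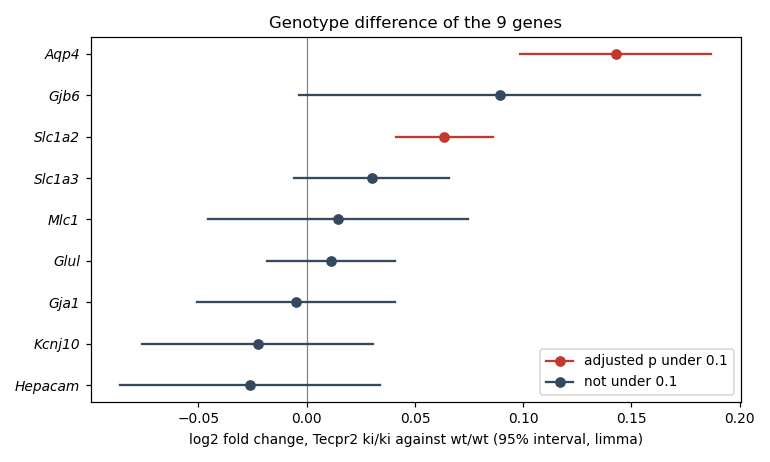
Log2 fold change of each gene, Tecpr2 ki/ki against wt/wt, with its 95% interval from limma and a line at no change. The intervals of Aqp4 (0.10 to 0.19) and Slc1a2 (0.04 to 0.09) lie above 0, and those of the other 7 genes include 0.

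Genes that work with these 9 were read from lists of related function. The anchor list held genes of the dystrophin complex, which anchors AQP4 and KIR4.1 in the endfoot, and other endfoot anchor genes such as laminins. Of its 11 genes, 0 were called in either direction (limma), and 1, a laminin gene, had an unadjusted p under 0.05. Over all tested genes 6.08% had an unadjusted p under 0.05 and 1.56% one under 0.01, shares against which these and the following counts are to be read. The median log2 fold change of the anchor list was -0.01, with Dag1, which encodes dystroglycan, at 1207 in Tecpr2 ki/ki and 1225 in wt/wt. Among partners of MLC1 and GlialCAM 0 of 6 were called (limma), and 1 had an unadjusted p under 0.05, namely Atp1b1, a sodium pump subunit, at 9103 against 9440 (log2 fold change -0.05, limma, adjusted p = 0.231). Other astrocytic ion and water transport genes gave 0 of 11 called (limma, with 2 at an unadjusted p under 0.05), and Aqp1 and Aqp9, the other aquaporins, read 34.0 and 14.4 on average in Tecpr2 ki/ki and 33.8 and 14.6 in wt/wt. Glutamate and amino acid handling gave 0 of 12 called (limma, with 1 at an unadjusted p under 0.05), and the remaining connexins and junction genes 0 of 10 (limma, with 0 at an unadjusted p under 0.05). At an unadjusted p under 0.01, each of 3 lists held 1 gene, namely Atp1b1, the sodium pump subunit gene Atp1b2 (6392.5 against 5989.9) and the mitochondrial glutamate carrier gene Slc25a18 (508.6 against 466.6).

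**Figure D4:**
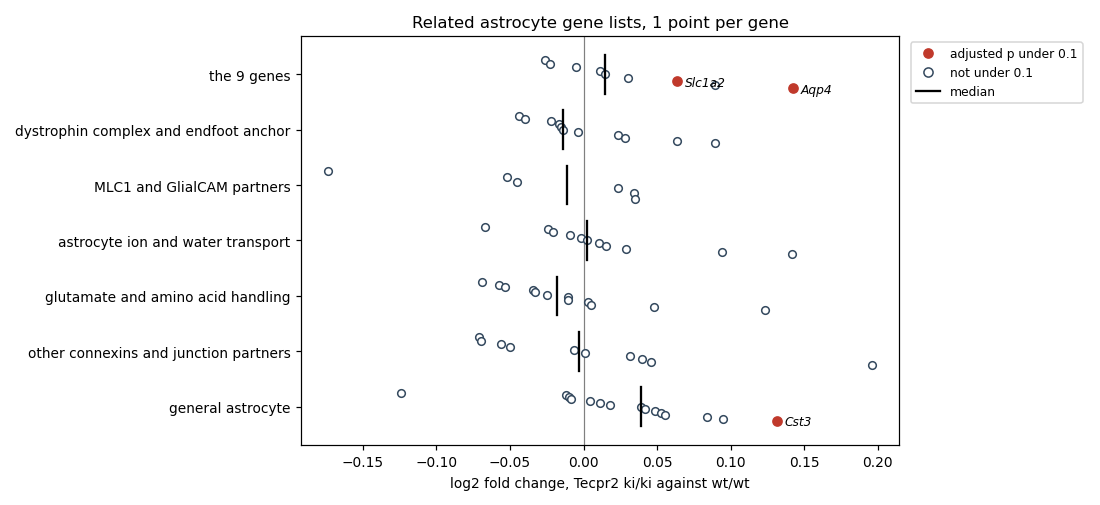
Log2 fold change, Tecpr2 ki/ki against wt/wt, of the 9 genes and of 6 related astrocyte lists, 1 point per gene, filled where the adjusted p is under 0.1, with the median as a line. Aqp4, Slc1a2 and Cst3 are the filled points, and the list medians lie between -0.02 and 0.04.

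General astrocyte markers were read beside these genes. Of 15 such genes, 1 was called, Cst3, which encodes the protease inhibitor cystatin C (3843 against 3511, log2 fold change 0.13, limma, adjusted p = 0.00605). An unadjusted p under 0.05 was reached by 4 of the 15, and one under 0.01 by 3, among them Clu, which encodes clusterin (log2 fold change 0.08, limma, adjusted p = 0.225), and in the other direction Slco1c1, a thyroid hormone transporter gene (log2 fold change -0.12, limma, adjusted p = 0.399). The median of the list was 0.04, with 11 estimates above 0 and 4 below, and its summed value was 29980 to 32736 in Tecpr2 ki/ki and 28883 to 31132 in wt/wt. The summed value was 3.26% higher in Tecpr2 ki/ki both for the 9 genes and for the general markers, and in each case a few abundant genes carried most of it. Without Slc1a2 the sum of the other 8 genes was 1.34% higher, and without Cst3 and Clu the sum of the other 13 general markers was 1.62% higher. Among intermediate filament genes 1 of 3 was called, Gfap, which encodes the filament protein that reactive astrocytes make in excess, at 2114 ± 102 in Tecpr2 ki/ki and 1411 ± 56.2 in wt/wt (SD, n = 8 each, log2 fold change 0.58, limma, adjusted p = 4.67e-27). The log2 fold change of Gfap thus exceeded that of Aqp4, at 0.14 the highest of the 9 genes, and this difference between genes was not tested. Gfap, too, is named by the study from these mice.

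Markers of other cell types and regions are given as sums per mouse, which were not tested between the genotypes. The summed value of 8 microglia markers was 2080 to 2237 in Tecpr2 ki/ki and 1932 to 2106 in wt/wt (6.57% higher), with 0 of 8 called (limma, 3 at an unadjusted p under 0.05) and none at 0 throughout. Bergmann glia markers, with 0 of 3 called (limma, 1 at an unadjusted p under 0.05), were 5.22% higher (947 to 1109 against 942 to 1066). The sum of 5 striatal markers differed by -5.81% (3194 to 3374 against 3394 to 3563). Of 9 neuronal markers 1 was called, Gad1, lower in Tecpr2 ki/ki (log2 fold change -0.09, limma, adjusted p = 0.0681), and the list's sum differed by -2.44%. Choroid plexus markers, 0 of 4 called (limma, 2 at an unadjusted p under 0.05), differed by -6.14% (4164 to 4785 against 4654 to 5290), and caudal brainstem markers, with 0 of 3 tested genes called (limma, 0 at an unadjusted p under 0.05), 6.75% higher (350 to 529 against 326 to 490). The part that cell composition or dissection played in the values of Aqp4 and Slc1a2 was not tested. Lists for oligodendrocytes, their precursors, endothelium, pericytes, ependyma, cerebellar neurons and cortex gave 0 called genes each (limma). At an unadjusted p under 0.05 stood 2 genes of the precursor list and 1 of the cerebellar list, and 0 of the others.

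Correlation across mice was examined within each genotype, so that the genotype difference did not enter. Among 72 relations (36 pairs of genes in 2 genotypes), 58 were positive, with a median Pearson r of 0.321. After the libraries were rescaled to one total, 50 were positive and the median r was 0.169. Only Kcnj10 and Gjb6 in Tecpr2 ki/ki mice passed an adjusted p of 0.1 (r = 0.917, exact permutation p = 0.00126, adjusted p = 0.0911, n = 8). Spearman's rho for this pair was 0.952 (exact permutation p = 0.00114, adjusted p = 0.0821), and r was 0.939 without the 2 mice farthest from the median of Kcnj10. In wt/wt mice the same pair had r = -0.00348 (exact permutation p = 0.993, n = 8), and the difference between the genotypes was not tested. Glul and Gjb6 came next in Tecpr2 ki/ki, at r = 0.844 (exact permutation p = 0.00563, adjusted p = 0.203). Aqp4 and Kcnj10, whose proteins share the endfoot membrane, had r = 0.347 in Tecpr2 ki/ki and 0.486 in wt/wt.

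The total value of a mouse moved with some of these genes and is given beside these relations. In Tecpr2 ki/ki mice the total fell with every step in replicate number, from 12157263 in mouse 1 to 11964284 in mouse 8. In wt/wt mice it did not. Kcnj10 (2967 in mouse 1, 2696 in mouse 8) and Gjb6 (435 and 369) were also lower at the end of this order. Relations within Tecpr2 ki/ki thus cannot be told apart from a trend over the order of samples. Total and order rank these 8 mice alike. The rank correlations with the total given below for Tecpr2 ki/ki are therefore also those with this order, with the sign reversed. In Tecpr2 ki/ki mice the total correlated with Kcnj10 at r = 0.911 (exact permutation p = 0.00221, adjusted p = 0.0397 over 18 relations, n = 8) and with Gjb6 at r = 0.846 (exact permutation p = 0.0106, adjusted p = 0.0707). In wt/wt mice it correlated with Slc1a3 at r = 0.814 (exact permutation p = 0.0118, adjusted p = 0.0707), and with r = 0.276 once the 2 farthest mice were left out, so that this relation rests on them. For Kcnj10 and Gjb6 in Tecpr2 ki/ki, r without the 2 mice farthest from the median total was 0.712 and 0.537. By rank none of the 18 relations passed an adjusted p of 0.1 (rho = 0.857 for Kcnj10 and 0.81 for Gjb6 in Tecpr2 ki/ki, and 0.81 for Slc1a3 in wt/wt, exact permutation, adjusted p = 0.131 for each). After the libraries were rescaled to one total, Kcnj10 and Gjb6 still had r = 0.901 in Tecpr2 ki/ki (exact permutation p = 0.00188), but the adjusted p was 0.136 and none of the 72 relations passed by Pearson r, whereas by rank this pair kept rho = 0.952 (adjusted p = 0.0821). Glul and Gjb6 fell to r = 0.704 under that scaling.

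**Figure D5:**
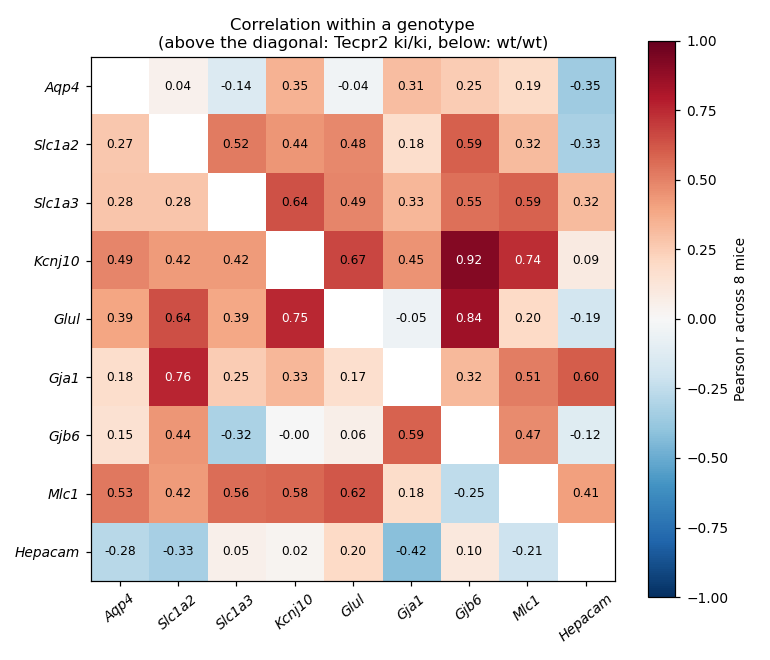
Pearson r between each pair of the 9 genes across the 8 Tecpr2 ki/ki mice (above the diagonal) and the 8 wt/wt mice (below), on log2(value + 1), coloured from -1 to 1. Kcnj10 and Gjb6 stand out above the diagonal at 0.917, and their counterpart below it is -0.00348.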

How the data were processed

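Total RNA of whole brain from 8 Tecpr2 ki/ki and 8 wt/wt mice was sequenced as stranded, ribosome-depleted libraries. According to the methods, the authors trimmed reads (Trim Galore 0.6.10, cutadapt 3.4), aligned them to GRCm39 with STAR 2.7.10b, counted them per gene with summarizeOverlaps and tested them with DESeq2 1.40.2. The deposited unit is a score: linear normalized values that the authors rounded to whole numbers. The normalization is not given in the sources used here, and so sequencing depth per library is not given either. The 16 tables of single mice held the same values as the table of all mice.

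Members and gene lists were chosen with earlier results of these data known. All 9 genes, listed genes under an adjusted p of 0.1, Tecpr2, Gfap and, per gene, the 3 genes of closest pattern were named, and Atp1b1, Atp1b2, Slc25a18, Dag1, Clu, Slco1c1, Aqp1, Aqp9 and the overlapping or near-copy genes were added once values were known. 1 listed gene past the threshold is left out of the text. Genes with a sum over 16 and with values above 5 in 4 or more mice of either genotype (23244) were fitted on log2(value + 1) with genotype as the only term (limma 3.58.1, R 4.3.3, eBayes with trend and robust). Fold changes on this scale are slightly understated for low genes. Exact permutation tests and correlations were computed in Python 3.11.15 (numpy 2.4.6, scipy 1.17.1, pandas 2.3.3), and figures with matplotlib 3.10.9. Gene positions, exon lengths and symbols came from GENCODE for GRCm38, an earlier build than that of the alignment. Steps were tested on simulated data. Between mice of a genotype, the variance was 1.55 to 3.16 times counting noise in 56 pairs, if the deposited values are taken as counts. Their scale is not known, so this multiple is not exact. This multiple therefore cannot exclude that a mouse was a repeat of another of its genotype, and pairs across genotypes were not compared. Alternatives were other filters, pseudocounts, scalings, variance models, a block by replicate number and the omission of each mouse.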

Additional observations from a re-analysis of the deposited data

Results flagged for a closer look

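Aqp4 in Tecpr2 ki/ki mouse 7 read 2195, below the 7 other mice of its genotype, of which the nearest read 2245. The gap was 0.543 of the range of the 8 mice, above Dixon's 95% critical value for 8 samples. It was the only such value among the 18 groups examined (9 genes in 2 genotypes), where chance flags about 1 group in 20. The mouse still lay above every wt/wt mouse (highest 2114), and without it the log2 fold change of Aqp4 was 0.149 (limma, adjusted p = 5.21e-05).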

How the results depend on the processing

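Of the 9 genes, 2 were called in each setting but 2. Without the limit on low values 20 genes were called over all genes, and without trend and robust estimation 16, against 31, and in both settings 1 of the 9 genes (Aqp4) was called. Slc1a2 then kept its log2 fold change of 0.0636 but had an adjusted p of 0.202 and 0.75 (limma). The omission of 1 mouse at a time gave 25 to 40 called genes and 2 of the 9 in every case. The sign reversed, with no call, for Glul (-0.000351 without wt/wt mouse 2), Mlc1 (-0.000528 without Tecpr2 ki/ki mouse 1) and Gja1 (0.00271 without Tecpr2 ki/ki mouse 2, 0.000329 without mouse 4, and 0.000984, 0.00718 and 0.000639 without wt/wt mice 2, 6 and 8). With 1 mouse left out the highest log2 fold change was 0.0222 for Glul and 0.027 for Mlc1, and the lowest for Gja1 was -0.0186. Kcnj10 was lowest at -0.0407 when wt/wt mouse 2 and highest at -0.00814 when wt/wt mouse 4 was omitted, and Hepacam ranged from -0.0391 to -0.0141 (without Tecpr2 ki/ki mouse 2), with no call. Scaling to one total left 0 correlations past the threshold by Pearson r against 1. The cause of these shifts was not tested.

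Replicate numbers did not pair the mice: same-numbered mice had deviations correlated at -0.0501 to 0.152, and 2 of 8 mice correlated best with their own number. With the replicate block 46 genes and 2 of the 9 were called (Aqp4 adjusted p = 5.29e-05, Slc1a2 adjusted p = 3.02e-05, limma), and no call among the 9 changed. The spread between mice limits how small a difference can be resolved, most of all for Gjb6.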

Other observations

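For each of the 9 genes, the genes with the most similar pattern across the 16 mice were sought among 11240 genes with a mean value of at least 100, after the mean of each genotype was subtracted, and Pearson r is given as a description. None of the 27 places was taken by another of the 9 genes. Aqp4 was most like Sbk1 (r = 0.816), Rgs16 (0.804) and Tti1 (0.786). Slc1a2 was most like Haus2 (0.89), Sdc4 (0.845) and Gabra5 (0.835), and Kcnj10 most like Pip4k2c (0.879), Itgb8 (0.853) and Tpi1 (0.821). Among the neighbours of Slc1a3 (Gna11 at 0.856, Gpr37l1 and Adcy1 at 0.823) stood Gpr37l1, an astrocytic receptor gene that is also among the listed partners of MLC1 and GlialCAM. How many such values chance would give was not computed, and all genes of a mouse share its library and scaling.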
